A study of Mus musculus with 8 samples.

Results

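The cytosolic ribosomal protein genes were taken by symbol: every gene whose name on the array is Rpl, Rps or Rplp followed by its number and, where present, a short suffix, with the Rps6k kinases left out. The rule found 83 of the 21196 gene symbols on the array, measured by 142 probes in 160 spots. Of these, 132 probes of 80 genes were above background in at least 1 channel on at least 2 of the 8 arrays. The RNA came from LLC1 cells, a Lewis lung carcinoma line from C57BL/6 mice, collected 4 h after X-rays. On each array RNA of irradiated cells carried Cy5 and RNA of untreated cells carried Cy3, and both bound the same spots. The irradiated cells had received a single dose of 2 Gy (2Gy, 3 arrays), a single dose of 10 Gy (10Gy, 2 arrays, replicates 1 and 2), or 5 fractions of 2 Gy, 10 Gy in total (5x2Gy, 3 arrays). The labels call the replicates biological, do not give the time between fractions, and name 1 cell line with no other treatment. The dyes were never exchanged, so any dye effect of a probe cannot be told apart from irradiation.

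Cytosolic ribosomal proteins assemble with ribosomal RNA into the small (Rps) and large (Rpl) subunits of the ribosome, and the P proteins (Rplp) form a stalk on the large subunit that recruits elongation factors. They are among the most abundant mRNAs of growing cells. Most of these mRNAs begin with a C followed by a run of pyrimidines, the 5' terminal oligopyrimidine (TOP) motif, through which mTOR signalling controls their translation. Several free ribosomal proteins, Rpl5 and Rpl11 among them, bind Mdm2 and slow the degradation of p53. The genes have many processed pseudogenes, near-identical copies that a probe may also bind, so the gene behind a probe is less certain here than for most genes.

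Start-site windows of 30 bases are shown for 4 members whose mRNA opens with the TOP run in RefSeq and for the paralogs Rps27l and Rpl7l1, which lead results below and have no such run at an annotated start. They come from the RefSeq promoter table (GRCm38.p6) and hold 10 bases before the annotated start and 20 from it. Capitals mark the unbroken pyrimidine run from the start, where a C is followed by at least 4 more C or T on the sense strand.
Rps27 (chr3:90213629-90213658, minus strand): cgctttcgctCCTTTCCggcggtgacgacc
Rplp2 (chr7:141447641-141447670, plus strand): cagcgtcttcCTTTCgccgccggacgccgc
Rpl15 (chr14:18270967-18270996, minus strand): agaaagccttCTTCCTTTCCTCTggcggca
Rps6 (chr4:86857348-86857377, minus strand): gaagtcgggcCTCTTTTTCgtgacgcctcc
Rps27l (first listed start, chr9:66946076-66946105, plus strand): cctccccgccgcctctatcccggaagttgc
Rps27l (other listed start, chr9:66946403-66946432, plus strand): gggcttcagggtcactaacgggcctcgcag
Rpl7l1 (chr17:46782637-46782666, minus strand): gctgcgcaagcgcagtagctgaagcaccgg
The table held 62 of the 83 symbols, and 13 of these 62 (21.0%) had the run at an annotated start, against 813 of 27025 symbols (3.01%) over all genes. Anywhere in the 30-base window it was found for 42 of the 62 (67.7%), against 39.6% of all symbols. A start that is annotated a few bases off hides the run, so its absence says only that these letters do not stand at this position. The first Rps27l window holds such a run just after its annotated start.

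The ribosomal protein spots were so bright that many reached the ceiling of the scanner, a median pixel signal of 65535. Of the 132 probes above background, 82 (65 genes) had a spot at the ceiling in either channel on at least 1 array, and 50 (35 genes) had none. Another 179 probes of other genes were also at the ceiling. The number of ribosomal protein spots at the ceiling in irradiated cells was 33, 46 and 41 on the 2Gy arrays, 36 on 10Gy replicate 1 and 25 on 10Gy replicate 2, and 23, 15 and 21 on the 5x2Gy arrays. In untreated cells it was 0 on each of the first 4 arrays, 14 on 10Gy replicate 2, and 28, 33 and 23 on the 5x2Gy arrays. The first 4 arrays lay on slide 1 and the other 4 on slide 2, so slide and regimen are bound together, and only the 10Gy regimen had an array on each.

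The signals of the probes at the ceiling are capped on the arrays where they reach it, so their medians are a description of what the scanner recorded and no measure of how even the RNA level was. Their median irradiated signal was 44659, 46447 and 45174 on the 2Gy arrays, 45190 and 42564 on the 10Gy arrays, and 42419, 41800 and 42275 on the 5x2Gy arrays. Their median untreated signal was 20237, 17768 and 18402 on the 2Gy arrays, 8468 and 41062 on the 10Gy arrays, and 45312, 44937 and 43361 on the 5x2Gy arrays. The recorded untreated median ran higher on every array of slide 2 than on any array of slide 1. The 50 probes below the ceiling had median untreated signals of 7214 to 10237 over the 8 arrays. Over all 21685 probes above background the untreated median lay between 724 and 974.

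**Figure D1:**
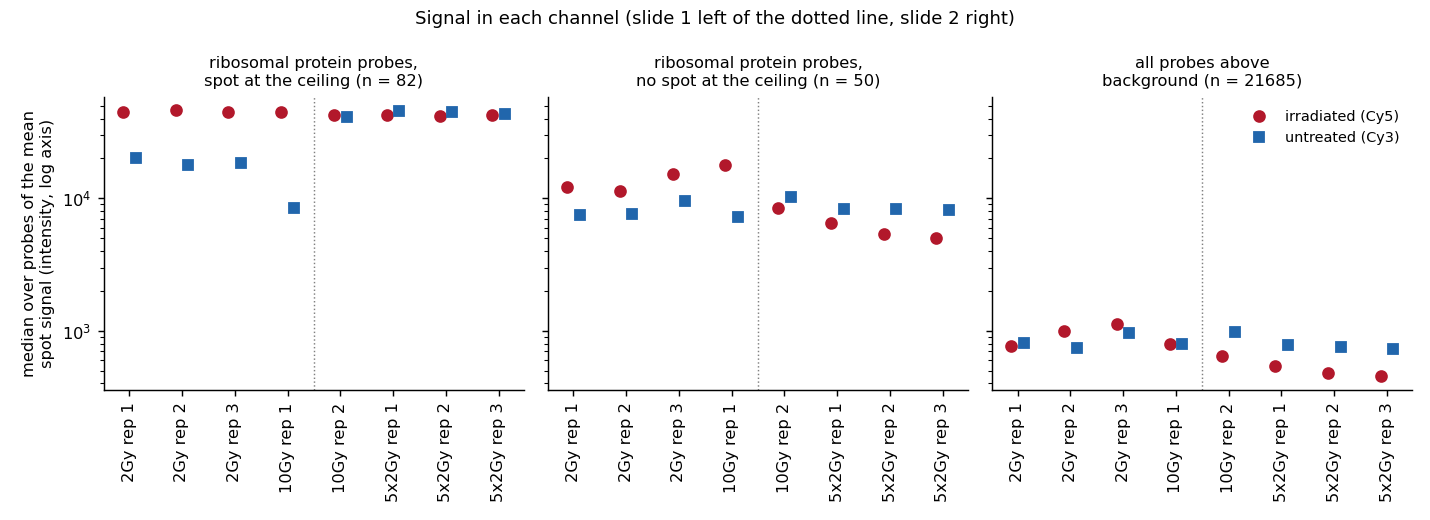
Median over probes of the mean spot signal (log axis) in irradiated cells (Cy5, circles) and untreated cells (Cy3, squares) on each array, for the 82 ribosomal protein probes with a spot at the ceiling, the 50 without, and all 21685 probes above background. For the 82 probes, whose signals are capped at the ceiling, the irradiated medians lie between 41800 and 46447 and the untreated medians run from 8468 on 10Gy replicate 1 to 45312 on 5x2Gy replicate 1.

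A ceiling reached in irradiated cells alone makes the measured ratio a lower bound, and one reached in untreated cells alone makes it too high. This holds before normalization, which can shift the ratios of bright probes. Probes at the ceiling were chosen by the same signals that form their ratios, so they are described apart from the others and the 2 kinds of probe are not tested against each other. Nor is a probe below the ceiling always far from it. Among the 50, the highest median pixel signals on any array were 65309 for a probe of Rpl7 (A_52_P455580), 64350 for Rpl5 (A_51_P183732) and 64193 for Rpl11 (A_51_P394524). The files flag 60.6% to 70.6% of the ribosomal protein spots with code 3, against 3.34% to 4.88% of all spots, and the meaning of the code is not given in the sources used here.

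After a single dose of 2 Gy most of the probes called higher were ones that reached the ceiling. Of the 132 probes 45 were higher and 4 lower than in untreated cells (limma, Benjamini-Hochberg adjusted p under 0.05 over 21685 probes), where 8.32% of all probes were called higher and 7.77% lower (16.1% in all). The 45 were 42 of the 82 probes at the ceiling and 3 of the 50 below it, and all 4 that fell were below it. The median log2 ratio was 0.56 at the ceiling and -0.01 below it. Median centring of each array in place of the loess curve, which follows intensity, raised these medians to 1.15 and 0.33. It called 102 probes higher and 3 lower, with 80 of the 82 at the ceiling and 22 of the 50 below it among the higher ones. Over all 21685 probes median centring called 4065 higher and 1012 lower (23.4% in all), with a median of 0.09.

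The 3 probes below the ceiling that rose after 2 Gy (6% of the 50, beside 8.32% of all probes) were those of Rpl5, Rpl7 and Rpl10. Rpl5, which carries 5S ribosomal RNA and binds Mdm2, had log2 ratios of 0.74, 0.55 and 0.55 on the 3 arrays of probe A_51_P183732. That is a rise of 0.61 ± 0.11 (SE, n = 3, limma adjusted p = 0.0079), above 0 on every array. The other Rpl5 probe, A_52_P82305, had -0.56, -0.04 and -0.36, a mean of -0.32 that did not pass the test (limma adjusted p = 0.12). Rpl7 rose by 0.45 ± 0.10 at A_52_P455580 (n = 3, limma adjusted p = 0.019), while its probe at the ceiling had -0.12, 0.01 and 0.27. Rpl10, a late-joining large subunit protein, rose by 0.36 ± 0.10 at A_51_P495895 (n = 3, limma adjusted p = 0.039). The other Rpl10 probe and the other Rpl7 probe below the ceiling were not called.

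The 4 probes that fell (8% of the 50 below the ceiling, beside 7.77% of all probes) were those of Rpl21, Rps13 and Rpl7l1. Rpl21, a large subunit protein, had ratios of -0.70, -0.93 and -0.87 for probe A_52_P258959, with irradiated signals of 3108, 2931 and 3235 against untreated signals of 4575, 3717 and 4608. Its mean of -0.83 ± 0.10 was the lowest of the 132 probes (n = 3, limma adjusted p = 0.0015). The other Rpl21 probe had 0.06, -0.25 and -0.03 and did not pass the test. Rpl7l1, a paralog of Rpl7, fell at both of its probes, by 0.55 ± 0.12 (A_51_P110147, n = 3, limma adjusted p = 0.016) and by 0.47 ± 0.10 (A_52_P343343, n = 3, limma adjusted p = 0.012). Rps13, a small subunit protein, fell by 0.50 ± 0.11 at a probe named for another accession than a RefSeq mRNA (n = 3, limma adjusted p = 0.014). The Rps13 probe at the ceiling had 0.96, 0.31 and 0.53.

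Among the probes at the ceiling, 14 had a spot there in irradiated cells on every 2Gy array. Their folds are lower bounds as far as the ceiling is concerned, and normalization can shift them. The highest bound was that of Rps2, at least 2.19-fold higher at A_51_P362278, whose ratios were 0.97, 1.28 and 1.14. Rpl32, a large subunit gene often used as a reference, had 0.48, 0.92 and 1.04 and rose by 0.81 ± 0.13 (n = 3, limma adjusted p = 0.0045, 2 of 3 arrays at the ceiling in irradiated cells). Rpl13a, known in human cells for a role outside the ribosome in silencing inflammatory mRNAs, rose by 0.82 ± 0.25 (limma adjusted p = 0.048). It was called under 10 of 23 alternatives. Rps6, the substrate of the S6 kinases, had 0.05, 0.06 and 0.07 and did not pass the test.

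The 2Gy count rests on each of its arrays and on the slide. Without 2Gy replicate 1, 2 or 3, 20, 6 and 6 probes were called in place of 49. Without 10Gy replicate 1 or 2, which enter only through the shared estimate of spread, 87 were called in each case, and without 5x2Gy replicate 3 it was 32. With slide as a fixed block 15 were higher and 8 lower, where 32.5% of all probes were called. With slide as a random block none was called, where 0.115% of all probes were. Within slide 1 alone, 73 were higher and 10 lower.

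**Figure D2:**
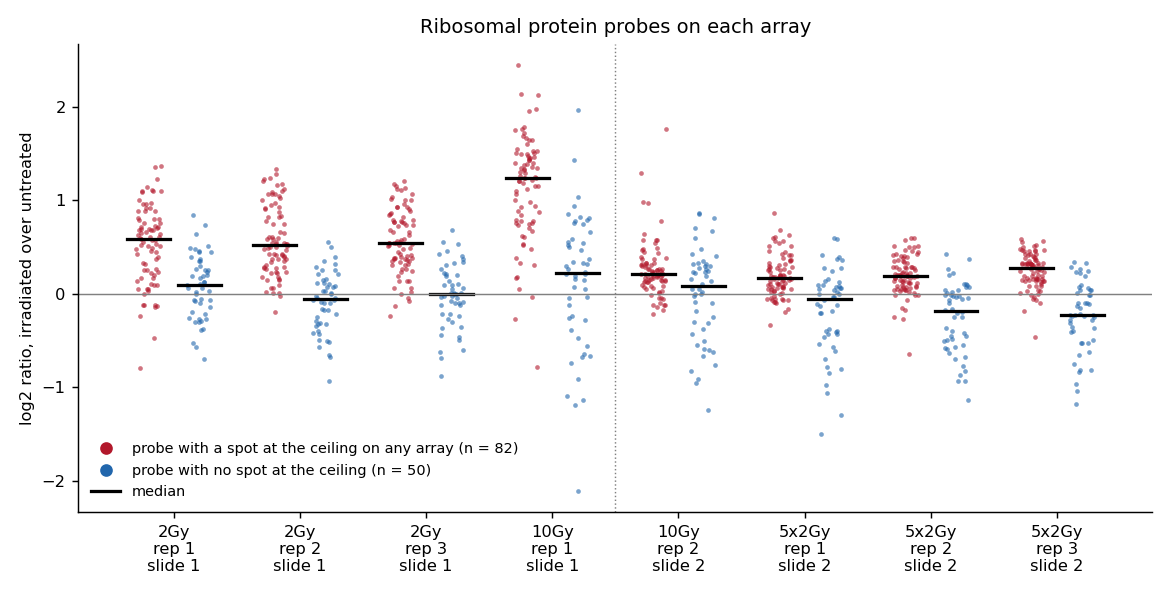
Log2 ratio of irradiated over untreated cells (y axis) for each of the 132 ribosomal protein probes on the 8 arrays (x axis), split by whether any spot of the probe reached the ceiling; black lines are medians, and the dotted line divides the slides. At the ceiling the medians are 0.52 to 0.59 on the 2Gy arrays, 1.24 and 0.21 on the 10Gy arrays and 0.17 to 0.28 on the 5x2Gy arrays.

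After a single dose of 10 Gy 62 probes were higher and 10 lower, where 11.2% of all probes were called higher and 15.6% lower (26.8% in all). At the ceiling 52 of 82 rose and none fell, with a median of 0.76. Below it 10 of 50 rose and 10 fell, with a median of 0.20 (0.66 with median centring). At the ceiling the 2 arrays of this regimen lay apart, with medians of 1.24 on replicate 1 (slide 1) and 0.21 on replicate 2 (slide 2), and below it they had 0.22 and 0.08.

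Rps27l had the highest mean of the members below the ceiling. This paralog of Rps27 is known as a p53-induced gene whose protein binds Mdm2. Its ratios were 1.96 and 0.81 on the 10Gy arrays, with irradiated signals of 41634 and 39001 against untreated signals of 5365 and 25266. Both arrays were above 0, and the rise of 1.39 ± 0.28 was 2.61-fold (SE, n = 2, limma adjusted p = 0.0062). It was called under 24 of 25 alternatives, but not within slide 2 alone, where 1 array of this regimen gave 0.81. On the 2Gy arrays Rps27l had 0.85, 0.21 and 0.68, a mean of 0.58 ± 0.23 that did not pass the test over all arrays (limma adjusted p = 0.11). Within slide 1 alone it did (limma adjusted p = 0.011). On the 5x2Gy arrays it had 0.60, -0.19 and -0.23. Rps27l carried flag code 3 on 6 of the 8 arrays.

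Rps27 itself was at the ceiling. It had 1.46 and 0.31 on the 10Gy arrays and rose by 0.88 ± 0.21 (n = 2, limma adjusted p = 0.014). On the 2Gy arrays it had 0.59, 0.50 and 0.62 and rose by 0.57 ± 0.17 (n = 3, limma adjusted p = 0.049), a call kept under 10 of 23 alternatives. On the 5x2Gy arrays it had 0.03, -0.07 and 0.08, with the untreated spot at the ceiling on each of the 3. For 2Gy, slide as a fixed block took its mean to -0.00.

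Of the members known to bind Mdm2, Rpl11, Rpl23 and Rpl5 each had 1 probe that rose after 10 Gy and another that fell. Rpl11 had 0.85 and 0.71 at probe A_51_P394524, a rise of 0.78 ± 0.14 (n = 2, limma adjusted p = 0.0039). At A_52_P566208, named for another accession than a RefSeq mRNA, it had -0.47 and -0.67 and fell by 0.57 ± 0.13 (limma adjusted p = 0.013). Rpl23 had 0.75 and 0.87 at A_52_P651894 and rose by 0.81 ± 0.12 (limma adjusted p = 0.0018), but fell by 0.58 ± 0.12 at A_51_P108190 (limma adjusted p = 0.0083), with both probes named for RefSeq mRNAs. Rpl5 rose by 0.51 ± 0.14 at 1 probe and fell by 1.02 ± 0.16 at the other (limma adjusted p = 0.0019). No direction can be given for these 3 genes from probes that disagree.

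Of the further Mdm2 partners, Rps14, Rps7, Rps3 and Rpl26 reached the ceiling. Rps14 had 2.13 and 0.45 and rose by 1.29 ± 0.30 (n = 2, limma adjusted p = 0.013). Rps7 had 0.93 and -0.05, and Rps3, which also takes part in DNA repair, rose at 1 of its 2 probes, by 0.75 ± 0.23 (limma adjusted p = 0.036). Rpl26, which binds the p53 mRNA, had -0.78 and -0.05 and did not pass the test. It had risen after 2 Gy by 0.51 ± 0.14, at least 1.43-fold (n = 3, limma adjusted p = 0.033).

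Further rises after 10 Gy below the ceiling were those of Rpl29 (0.70 ± 0.17 at A_52_P326158), Rpl24 (0.67 ± 0.17), Rps19 (0.60 ± 0.18), Rpl10 (0.53 ± 0.12 at A_51_P495895), Rpl36a and Rpl7l1. The 3 Rpl29 probes below the ceiling had medians of 0.54 and -0.31 on the 10Gy arrays. The other Rpl10 probe was not called. Rps19 is the gene most often mutated in human Diamond-Blackfan anaemia. It had 0.93 and 0.27 at A_51_P337290 (limma adjusted p = 0.038), and its probe at the ceiling had 1.43 and 0.05. The falls were largest at Rps24 and Rps12, small subunit proteins, at probes named for other accessions. Rps12 had -1.09 and -1.25, with irradiated signals of 447 and 265 against untreated signals of 883 and 970, and fell by 1.17 ± 0.17 (n = 2, limma adjusted p = 0.0013). On replicate 2 the irradiated signal lay below the background threshold of 302, so the size of this fall is uncertain. Rps24 had -2.11 and -0.30, a mean of -1.20 ± 0.31 set mostly by replicate 1 (limma adjusted p = 0.019). Its other probes, A_51_P312936 and A_52_P537084, were not called. Rpl21 fell again, with -0.56 and -0.83, and so did Rpl31 by 0.61 ± 0.11 (limma adjusted p = 0.0038), Rps28 by 0.67 ± 0.17 and Rpl7a by 0.50 ± 0.13. The other probes of Rpl21 and Rpl31 were not called. The Rps28 probe that fell was not above background in both channels on every array.

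Of the 5 P stalk probes, the 4 named for RefSeq mRNAs rose after both single doses. After 10 Gy Rplp0 rose by 0.78 ± 0.25 and 0.97 ± 0.27 at 2 probes, Rplp1 by 0.79 ± 0.23 and Rplp2 by 0.98 ± 0.18, at least 1.97-fold (n = 2, limma adjusted p = 0.0039). The Rplp0 probes were called under 9 and 18 of 23 alternatives, Rplp1 under 15 of 24 and Rplp2 under 23 of 24. After 2 Gy the same 4 probes rose by 0.75, 1.08, 0.81 and 0.62. All 5 P stalk probes reached the ceiling. On 10Gy replicate 1 (slide 1) the median of the 5 P stalk probes was 1.39, and on replicate 2 (slide 2) it was 0.20. The fifth probe, of Rplp0, was printed in 10 spots and averaged 0.17, -0.02 and 0.02 on the 2Gy arrays, 0.67 and 0.08 on the 10Gy arrays and 0.01, 0.19 and 0.15 on the 5x2Gy arrays. The SD over its 10 spots was 0.10 to 0.33, spots of 1 array being no replicates, and it passed no test. In irradiated cells 2, 3 and 2 of its spots were at the ceiling on the 2Gy arrays, and 1 on each 10Gy array.

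The 10Gy count of 72 fell to 32 without replicate 1 and was 102 without replicate 2, where the lone array is assumed to vary like the other regimens. Median centring called 104 higher, 25 of them below the ceiling, and 9 lower. Over all 21685 probes it called 3248 higher and 2738 lower (27.6% in all). A fit to the 10Gy arrays alone called 6 higher and 2 lower. A random block for slide left 25 higher and 6 lower, where 9.74% of all probes were called. Each slide holds 1 array of this regimen. A count within a slide would borrow its spread from the other regimen there and is not given.

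**Figure D3:**
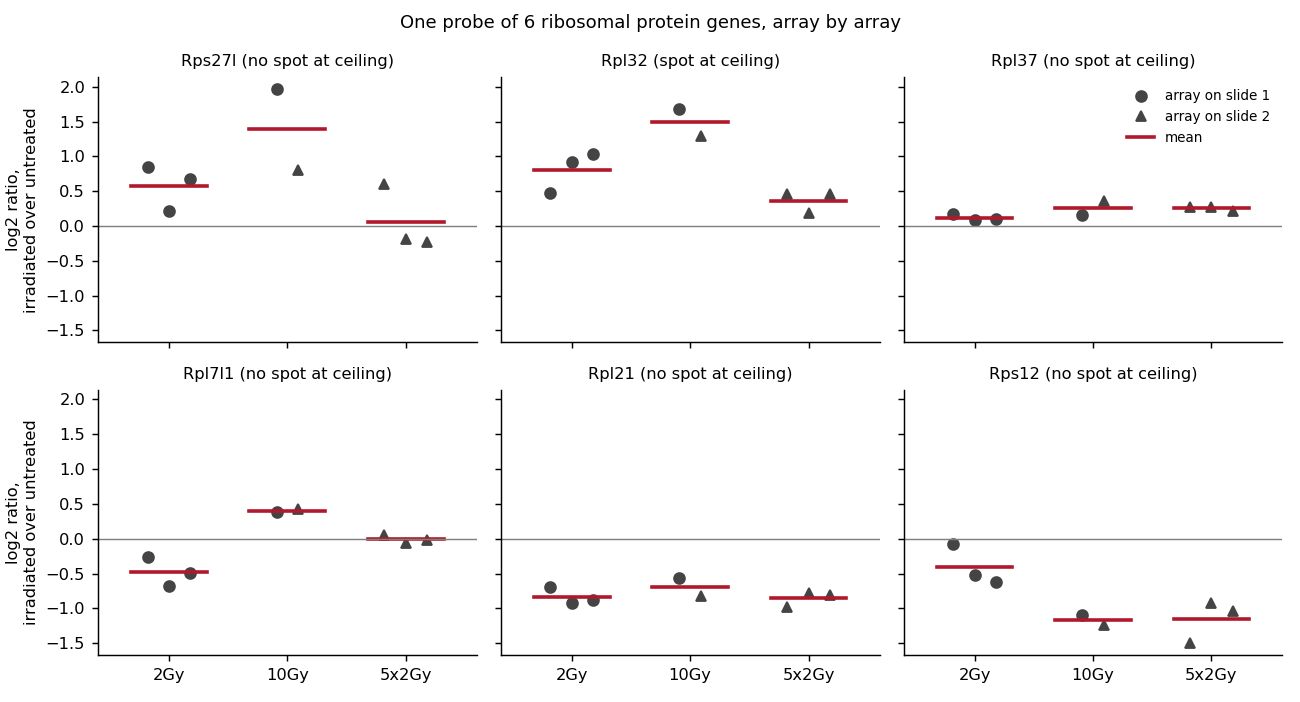
Log2 ratio of irradiated over untreated cells (y axis) for 1 probe each of Rps27l, Rpl32, Rpl37, Rpl7l1, Rpl21 and Rps12 in the 3 regimens (x axis); points are arrays, circles on slide 1 and triangles on slide 2, and bars are means. Rpl21 lies below 0 on all 8 arrays (-0.98 to -0.56), Rpl32 above 0 on all 8 (0.18 to 1.68), and Rps27l at 1.96 and 0.81 on the 10Gy arrays.

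After 5 fractions of 2 Gy few ribosomal protein probes were higher. Of 132 probes 5 rose and 19 fell, where 16.7% of all probes were called higher and 25.1% lower (41.9% in all). At the ceiling 4 of 82 rose and 1 fell, with a median of 0.22. Below it 1 of 50 rose and 18 fell (36.0%), with a median of -0.13. The 5 that rose (3.79% of the 132) were Rpl6, Rpl32, Rpl37 and both probes of Rpl23a. Rpl37, at a probe below the ceiling, had 0.27, 0.27 and 0.22 and rose by 0.25 ± 0.08 (n = 3, limma adjusted p = 0.036). This dim probe, with a highest median pixel signal of 649.5, was not above background in both channels on every array. Rpl32 had 0.46, 0.18 and 0.46 and rose by 0.37 ± 0.13 (limma adjusted p = 0.044).

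Rps12, Rps28, Rps24, Rpl5, Rpl21 and Rps13 fell most. Rps12 had -1.496, -0.93 and -1.04, with irradiated signals of 198, 263 and 193 against untreated signals of 825, 783 and 669. It fell by 1.16 ± 0.14 (n = 3, limma adjusted p = 0.00037). These irradiated signals lay below the background thresholds of 299, 281 and 236 on the same arrays, so the size of the fall is uncertain. Rps28 had -1.29, -0.87 and -1.18 and fell by 1.11 ± 0.14 (limma adjusted p = 0.00044), Rps24 by 0.94 ± 0.25 and Rps13 by 0.77 ± 0.11. All 4 are small subunit genes read here by probes named for other accessions. The RefSeq probe of Rps12 had 0.20, 0.17 and -0.09, and those of Rps28 lay between -0.03 and 0.31. The Rps13 probe at the ceiling had 0.29, 0.36 and 0.17. The other Rps24 probes were not called. The Rps28 and Rps13 probes that fell were not above background in both channels on every array, so the sizes of their falls are uncertain.

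Rpl21 had -0.98, -0.78 and -0.82 and fell by 0.86 ± 0.10 (n = 3, limma adjusted p = 0.00031). This probe and the Rps13 probe below the ceiling were the only ones of the 132 to fall after every regimen. Rpl5 fell by 0.90 ± 0.13 at A_52_P82305 (limma adjusted p = 0.00085) and had 0.10, 0.22 and 0.23 at its other probe. Rpl31 had -0.56, -0.69 and -0.65, Rpl14 fell by 0.49 ± 0.08, Rpl29 by 0.74 ± 0.15 and 0.42 ± 0.15 at 2 probes, and Rps15a by 0.52 ± 0.11. The other probes of Rpl21 and Rpl31 were again not called. Rpl11, Rpl23, Rpl10a, Rps21, Rpl7a, Rpl22l1, Rpl6 and Rpl36a each fell at 1 probe, by 0.32 to 0.63. Of these, the Rpl36a probe was at the ceiling.

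Other scaling shifted the balance after 5 fractions. Median centring gave 14 higher and 12 lower, where 40.0% of all probes were called. Scaling between arrays gave 0 higher and 12 lower, where 30.4% of all probes were called. The count of 24 was 12, 11 and 11 without 5x2Gy replicate 1, 2 or 3, and 61 without either 10Gy array. With slide as a fixed block 71 probes were higher and 15 lower, where 35.3% of all probes were called. With slide as a random block the counts were 0 and 4, and on slide 2 alone 45 and 23. The falls of Rpl21, Rps12 and Rps13 were called under all of the 23 to 25 alternatives run for them. For Rps12 and Rps13 these did not include the filter for signal above background in both channels on every array. Their dim probes did not pass that filter. Neither did the probes called after 5 fractions of Rps28, Rps15a, Rpl37, Rpl11 (A_52_P566208) and Rpl22l1 (A_52_P65897). The sizes of all these changes are uncertain.

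**Figure D4:**
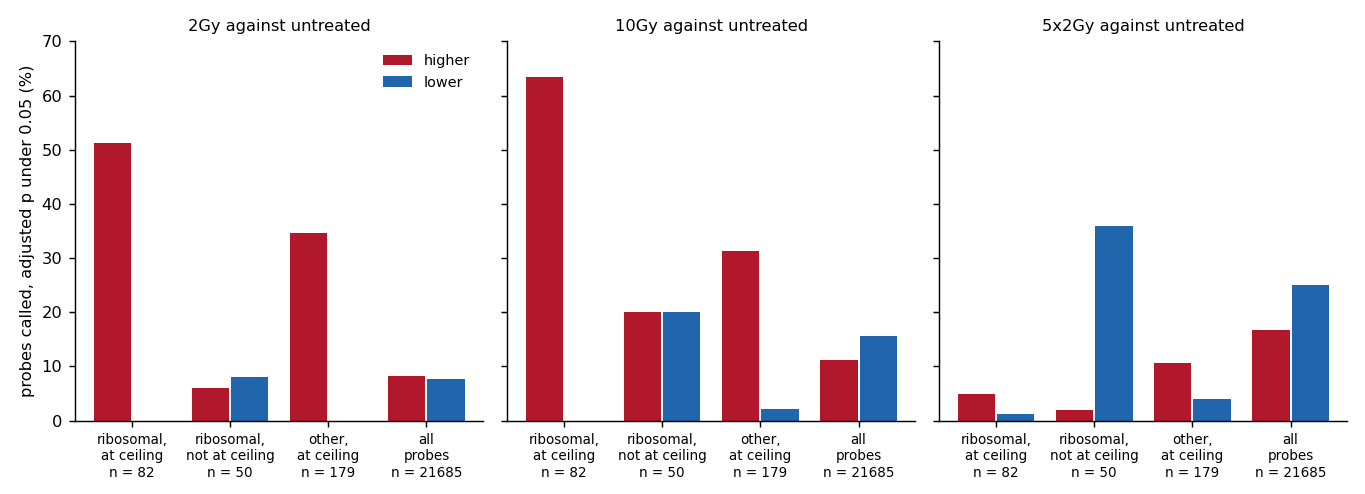
Share of probes (y axis, %) called higher (red) or lower (blue) at an adjusted p under 0.05 in each regimen against untreated cells, for ribosomal protein probes at the ceiling and below it, other probes at the ceiling, and all probes. At the ceiling 51.2%, 63.4% and 4.88% of ribosomal protein probes were higher after 2Gy, 10Gy and 5x2Gy, beside 34.6%, 31.3% and 10.6% of the other probes at the ceiling.

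Probes of the same gene often differed. Of the 80 genes 40 had several probes above background. After 10 Gy 6 (Rpl11, Rpl23, Rpl5, Rpl7a, Rps13 and Rps28) had probes called in both directions. After 5 fractions only Rpl6 did. The 14 probes below the ceiling that are named for other accessions (GenBank clones or Ensembl entries) had medians of -0.22, -0.35 and -0.33 after 2Gy, 10Gy and 5x2Gy, with 1, 6 and 7 lower and none higher. The 36 RefSeq probes below the ceiling had medians of 0.11, 0.26 and -0.01, with 3, 10 and 1 higher and 3, 4 and 11 lower. The sequences of the probes were not analysed here.

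Of the 20 genes with both kinds of probe, between 13 (10Gy replicate 2) and 19 (2Gy replicate 2 and 5x2Gy replicate 3) had the higher ratio at the probes that reach the ceiling. The median difference within a gene was 0.37 to 0.66 on the 2Gy arrays, 1.05 and 0.38 on the 10Gy arrays and 0.43 to 0.48 on the 5x2Gy arrays. Across the 132 probes, the log2 ratio correlated with the mean log2 signal of the probe at r = 0.51 to 0.60 on the 2Gy arrays, 0.64 and 0.45 on the 10Gy arrays and 0.59 to 0.64 on the 5x2Gy arrays. Over all probes it lay between -0.05 and 0.05. These points share an array and its normalization and are not replicates.

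**Figure D5:**
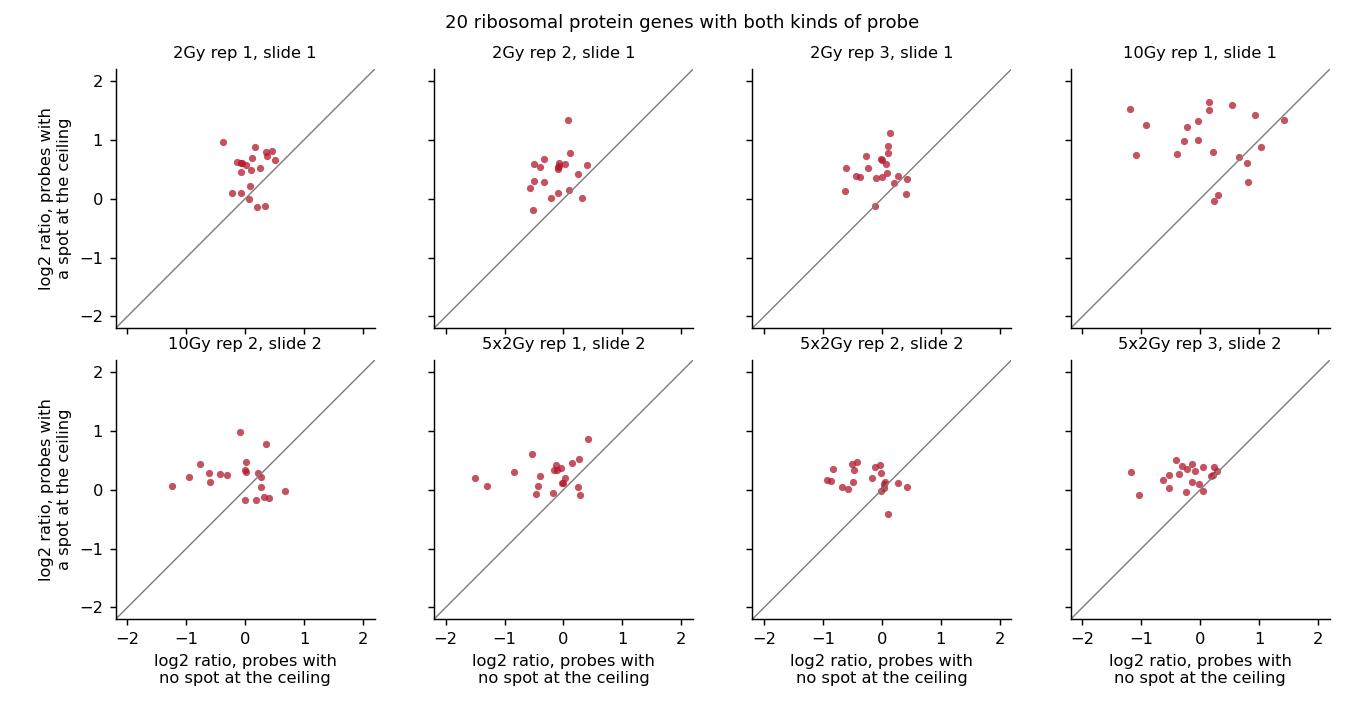
For each of the 20 genes with both kinds of probe, the median log2 ratio of its probes with a spot at the ceiling (y axis) against that of its probes without (x axis), on each of the 8 arrays; the grey line marks equality. Most genes lie above the line, 13 to 19 of the 20 on every array.

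The other paralogs gave few calls. Rpl22, the parent of Rpl22l1, rose after 10 Gy at its probe at the ceiling (1.64 and 0.46, mean 1.05 ± 0.22, limma adjusted p = 0.0079) and had 0.14 and 0.02 at its other probe. Rpl22l1 had 0.08 and 0.29 at its RefSeq probe, which passed no test. Rpl36al, a copy of Rpl36a, had 0.18 and 0.14 after 10 Gy and passed no test in any regimen. Rpl3l, the striated muscle paralog of Rpl3, Rpl39l, a testis paralog of Rpl39, and Rps4y2 were not above background on enough arrays to be tested. By subunit, 15 of 52 small subunit probes and 26 of 75 large subunit probes rose after 2 Gy, and 23 and 35 after 10 Gy.

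Between the regimens 1 member probe differed. Rpl7l1 at A_52_P343343 had 0.38 and 0.43 on the 10Gy arrays, against -0.26, -0.68 and -0.49 on the 2Gy arrays. The groups did not overlap, and the difference was 0.88 (limma adjusted p = 0.032), where 2.23% of all probes were called, 0.821% higher and 1.41% lower. On slide 1 alone, which holds 1 array of 10Gy, it was 0.85. Of the alternatives 15 of 24 kept the call, the limma adjusted p running from 0.0038 to 0.19. Its other probe had 0.33 and -0.09 on the 10Gy arrays, against -0.30, -0.65 and -0.69 on the 2Gy arrays.

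In limma no member probe differed between 5x2Gy and 2Gy, where 1.94% of all probes were called (0.484% higher and 1.46% lower), and none between 5x2Gy and 10Gy, where 0% were. At an unadjusted p under 0.05 there were 35 and 40 of 132 (26.5% and 30.3%), beside 26.0% and 16.1% of all probes. Without 10Gy replicate 2 the second count was 93 (and 41.8% of all probes were called), with 10Gy replicate 1 alone in its regimen and slide and dose then fully bound together. Without 10Gy replicate 1 it stayed at 0. For 5x2Gy against 2Gy 50 were called without either 10Gy array, beside 30.4% of all probes. For 10Gy against 2Gy the count was 25 without 10Gy replicate 1 (12.1% of all probes), 64 without replicate 2 (30.7% of all probes), and 0 without any 1 of the 2Gy or 5x2Gy arrays. Within slide 1 the median at the ceiling was 1.24 on 10Gy replicate 1, against 0.52 to 0.59 on the 2Gy arrays. Within slide 2 it was 0.17 to 0.28 on the 5x2Gy arrays, against 0.21 on 10Gy replicate 2.

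Further lists were read beside the members. Fau, a fusion of a ubiquitin-like protein with a small subunit protein whose symbol lies outside the rule, rose by 1.11 ± 0.23 after 2 Gy at a probe that reached the ceiling. The 15 other genes known for TOP mRNAs, mostly translation factors, had medians of 0.06, 0.09 and -0.07 over 29 probes after 2Gy, 10Gy and 5x2Gy, of which 4 reached the ceiling, and 2, 4 and 1 probes rose while 2, 2 and 6 fell. With median centring these medians were 0.62, 0.68 and 0.04. Pabpc1, the poly(A)-binding protein, rose by 0.63 ± 0.11 after 2 Gy at its probe at the ceiling and fell by 0.67 ± 0.16 at another.

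Of 23 abundant transcripts that encode no ribosomal protein, 15, 10 and 8 of 38 probes rose, with medians of 0.32, 0.19 and 0.20, and 23 of the 38 reached the ceiling. Gapdh, the glycolytic enzyme, rose by 1.08 ± 0.11, 0.67 ± 0.13 and 0.50 ± 0.11 at A_52_P1687, which reached the ceiling. The ribosome assembly and RNA polymerase I genes gave 0, 7 and 6 of 56 probes higher and 19, 15 and 24 lower, with medians of -0.36, -0.22 and -0.20, and with median centring -0.10, 0.05 and -0.17. Ncl, the nucleolar protein nucleolin, fell at probe A_52_P429650 by 0.95 ± 0.15 after 10 Gy and by 1.23 ± 0.12 after 5 fractions, while 2 of its other probes had 0.19 and 0.17 after 5 fractions, and Polr1b, a subunit of RNA polymerase I, by 0.84 ± 0.11 after 2 Gy.

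The labelled carcinoma line was checked against marker genes of its own and other cell types. Krt8, Krt18 and Vim, markers of epithelial and mesenchymal cells, were above background on all 8 arrays in both channels. Vim had 2 probes, and its lowest untreated signal of 240.5 lay below every untreated threshold (346 to 451). At least 1 Vim probe was therefore not above background on every array. Ptprc of leukocytes, Pecam1 of endothelium and Alb of hepatocytes were above background on 0 of 8 in either channel, and Sftpc of alveolar cells on 0 of 8 in irradiated and 1 of 8 in untreated cells. Cd3e of leukocytes was above background on 3 of 8 arrays in irradiated and 8 of 8 in untreated cells, with untreated signals of at most 563. Cdh5, Hba-a1 and Scgb1a1 were above background on a part of the arrays in each channel. Their part in the results was not tested.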

How the data were processed

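The authors deposited, per the file headers, scanner files with an intensity per spot and channel (mean, median and mode pixel signals from ImaGene 9.0), neither background-corrected nor normalized, and a matrix of log2 ratios per probe. Its columns (medians -0.005 to 0.009) correlated at r = 0.993 to 0.999 with the loess ratios used here, Cy5 over Cy3, which settled scale and direction. RNA was amplified and labelled with Cy3 or Cy5, per the labels.

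With limma 3.58.1 (R 4.3.3), mean signals received a normexp correction (offset 50) and a loess normalization per array that gave controls no weight. Repeated spots were averaged. Probes were tested if their signal exceeded the median of 153 negative controls plus 2.6 robust SD in either channel on at least 2 arrays (21685 of 41174). All 8 arrays entered a single limma fit (lmFit, eBayes) that estimates each regimen's mean log2 ratio, and calls were made at a Benjamini-Hochberg adjusted p under 0.05 across the tested probes. The fit was tested on simulated data. The number of arrays limits the precision, and p-values measure the spread between arrays.

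The scan image named in each header assigns 4 arrays to each of 2 slides. Replicate numbers do not pair the arrays. Same-numbered arrays of different regimens had deviations that correlated at -0.22 to 0.11. No 2 arrays held identical signals. Symbols are those of the array. The members, the lists and the naming rule were chosen with earlier results of these data known. Named in each comparison were up to 8 probes below the ceiling with the largest mean in each direction and the sign of the mean on all arrays, every member that fell, a set named whatever its values (Rps27l, the other paralogs, the Mdm2 partners, the P stalk, Rpl32, Rpl13a, Rps6, Rps19) and up to 3 genes of each further list. The values of 2 genes and the summary of the list of ribosomal proteins outside the symbol rule are not reported here. Genes given for a lower bound, for a disagreeing probe or because few were called were chosen after their values were seen. The alternatives are given in the closing section.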

Additional observations from a re-analysis of the deposited data

Results flagged for a closer look

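Rpl7l1, the paralog of Rpl7, was the 1 ribosomal protein gene whose response differed between regimens by a test of the difference itself. At probe A_52_P343343 the mean log2 ratio was 0.40 after 10Gy and -0.47 after 2Gy, a difference of 0.88 (limma adjusted p = 0.032), with all 10Gy arrays above all 2Gy arrays. The call was lost without any 1 of the 2Gy or 5x2Gy arrays, with scaling between arrays (limma adjusted p = 0.057), with the replicate number as a block (limma adjusted p = 0.11) and with the arrays of the 2 regimens alone (limma adjusted p = 0.19). The other Rpl7l1 probe did not pass this test.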

How the results depend on the processing

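Counts of called ribosomal protein probes, given here in the order 2Gy, 10Gy and 5x2Gy against untreated cells, were 49, 72 and 24, and between regimens 1 (10Gy against 2Gy), 0 (5x2Gy against 2Gy) and 0 (5x2Gy against 10Gy). Median centring gave 105 and 113 for 2Gy and 10Gy, and 3 and 9 for 10Gy and 5x2Gy against 2Gy. Over all probes it called 23.4%, 27.6%, 3.16% and 5.53% in the same order. Scaling between arrays gave 12 for 5x2Gy and 0 for 10Gy against 2Gy. The deposited log2 ratios gave 32 for 2Gy. Leaving out probes at the ceiling gave 7 and 20 for 2Gy and 10Gy, since fewer probes are counted, and 1 probe per symbol gave 46 for 10Gy, 6 for 5x2Gy and 0 for 10Gy against 2Gy. For 5x2Gy against 2Gy the count was 2 with no background correction, with median pixel signals (2 also for 10Gy against 2Gy) and with the deposited ratios, and 1 with offset 0, without the filter on dim probes and without probes at the ceiling. Slide as a fixed block gave 23 for 2Gy, 86 for 5x2Gy, 64 for 10Gy against 2Gy and 21 for 5x2Gy against 2Gy. Over all probes it called 32.5%, 35.3%, 30.7% and 16.4% in the same order. Slide as a random block gave 0, 31 and 4, with 33 and 1 against 2Gy. Beside the 0, 31 and 33 the shares of all probes called were 0.115%, 9.74% and 19.8%. Fits on the arrays of the regimens compared alone gave 83, 8 and 68, with 0 and 50 against 2Gy. Chosen after seeing the data, leaving out spots with a flag kept 25 probes and gave 3, 11 and 14 (0, 1 and 1 higher). Their medians were -0.18, -0.31 and -0.32. Over all 132 probes the medians were 0.36, 0.52 and 0.14, but these cover different probes. All 82 probes at the ceiling carried flag code 3 on at least 1 array. Of the 35 named values in this fit, 0 lost, gained or reversed a call. Slide 1 alone gave 83 for 2Gy and 45 for 10Gy against 2Gy, and slide 2 alone gave 35 for 10Gy and 68 for 5x2Gy. With the replicate block the counts were 41, 48 and 23, and 0 for 10Gy against 2Gy, but the numbers do not pair the arrays. Leaving out 1 array at a time gave 6 to 87 for 2Gy, 32 to 102 for 10Gy, 11 to 61 for 5x2Gy, 0 to 64 for 10Gy against 2Gy, 0 to 50 for 5x2Gy against 2Gy and 0 to 93 for 5x2Gy against 10Gy. Of 2857 recomputed values of named probes, 2331 kept direction and call, 49 changed sign while called in neither fit, 322 lost the call, 152 gained one and 3 reversed with a call in either fit: Rps6 after 10Gy was 0.63 with median centring, and with slide as a fixed block Rps27 after 2Gy was -0.0045 and Rpl29 (A_52_P217069) after 5x2Gy was 0.013. The causes were not tested. With 2 or 3 arrays a regimen and signals at the ceiling, folds of the brightest members are limited to bounds.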
